A study of Mus musculus with 6 samples.

Results

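The T cell genes described here were Cd3d, Cd3e, Cd3g, Cd4, Cd8a, Cd8b1, Foxp3, Lat, Cd5 and Lef1, that is 10 of the 41388 genes in a count table of mouse lung RNA. They were found in the table by their symbols, and all 10 passed the filter on low counts that left 18660 genes for testing. The table compared lungs of adult Zpbp2-/- mice, which lack the 5′ part of that gene (KO, 3 libraries, KO1 to KO3), with lungs of adult wild type mice (WT, 3 libraries, WT1 to WT3). The labels give the strain as C57BL/6J for both groups, no treatment, and Zeitgeber time 7 (ZT7, 7 h after lights on) for every lung. The deletion is carried in the germline, so that T cells and all other cells of the KO lung carry it, and no group tested it in T cells alone. KO2 and KO3 differed from each other by little more than counting noise (1.71 to 1.93 times the counting variance for genes with under 20000 counts, 3.32 times above that). The study describes each library as a separate mouse, but the counts do not show whether KO2 and KO3 came from 1 animal or 2. They were summed and counted as 1 sample, which left 3 WT samples and 2 KO samples.

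T cells recognise peptides through the T cell receptor (TCR), whose signal leaves the membrane through the CD3 chains and is passed on by the kinases Lck and Zap70 to the adaptor Lat. CD4 and CD8 are coreceptors that bind the MHC molecules of antigen-presenting cells and divide T cells into helper and cytotoxic lineages, and Foxp3 directs the regulatory T cell program. The lung holds recirculating T cells in its blood vessels and resident T cells in its tissue, and a bulk lung library samples both together.

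The CD3 chain genes are shown first by their promoters, because their RNA levels moved together over the libraries. On GRCm38, Cd3g (44969572 to 44980431, minus strand), Cd3d (44981786 to 44987339, plus strand) and Cd3e (44998740 to 45009627, minus strand) lie within 40.1 kb of chromosome 9, and the start sites of Cd3d and Cd3g are 1.35 kb apart and transcribed away from each other. Each sequence below is the RefSeq promoter on GRCm38.p6, from 250 bases before to 50 bases after the start that RefSeq gives, 5′ to 3′ on the strand of the gene. The gene coordinates are those of GENCODE M21, whose starts for Cd3e and Lat differ from those of RefSeq. The promoter of Lat, the member with the smallest p-value, is given for comparison. Capitals mark the letters CTTTGA (a core of TCF and LEF factor sites), ACTTCC (a core of ETS factor sites) and CACCTG (an E-box), searched on both strands.
Cd3g, chr9:44980382-44980681, minus strand: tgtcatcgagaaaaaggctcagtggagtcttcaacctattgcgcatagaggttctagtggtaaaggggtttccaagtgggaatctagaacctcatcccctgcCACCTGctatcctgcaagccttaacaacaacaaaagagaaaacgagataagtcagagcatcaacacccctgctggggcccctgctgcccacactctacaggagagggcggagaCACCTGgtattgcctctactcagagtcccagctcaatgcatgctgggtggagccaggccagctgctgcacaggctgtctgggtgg
Cd3d, chr9:44981536-44981835, plus strand: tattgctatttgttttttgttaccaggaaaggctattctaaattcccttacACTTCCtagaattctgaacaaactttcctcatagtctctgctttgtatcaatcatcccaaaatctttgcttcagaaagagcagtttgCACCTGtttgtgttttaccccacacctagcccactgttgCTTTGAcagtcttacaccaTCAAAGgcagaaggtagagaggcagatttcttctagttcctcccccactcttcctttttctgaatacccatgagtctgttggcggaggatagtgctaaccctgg
Cd3e, chr9:45009562-45009861, minus strand: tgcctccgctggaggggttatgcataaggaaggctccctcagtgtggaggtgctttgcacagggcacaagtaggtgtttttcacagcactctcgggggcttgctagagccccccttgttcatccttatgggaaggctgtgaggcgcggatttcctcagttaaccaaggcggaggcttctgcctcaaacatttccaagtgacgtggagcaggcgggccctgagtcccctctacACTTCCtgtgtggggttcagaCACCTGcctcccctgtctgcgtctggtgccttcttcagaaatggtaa
Lat, chr7:126369519-126369818, minus strand: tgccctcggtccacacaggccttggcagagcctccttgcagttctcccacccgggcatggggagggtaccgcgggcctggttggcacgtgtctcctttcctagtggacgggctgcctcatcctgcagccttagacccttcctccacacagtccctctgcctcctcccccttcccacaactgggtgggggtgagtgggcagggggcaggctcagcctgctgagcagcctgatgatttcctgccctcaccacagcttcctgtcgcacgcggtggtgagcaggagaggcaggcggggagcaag
The Cd3d window held 2 matches to CTTTGA, 1 to ACTTCC and 1 to CACCTG. The Cd3g window held 2 matches to CACCTG, and the Cd3e window held 1 match each to ACTTCC and CACCTG. No marked matches overlapped in these windows, and the Lat window held none of the letters searched. Among all 32851 promoters of the same length, 16.0% held CTTTGA, 23.8% held ACTTCC and 20.2% held CACCTG. Promoters were found for 8 of the 10 members, with 12 start sites in all. The matches are descriptions of sequence and were not tested for binding.

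The libraries held between 59134950 and 71354388 counts. Zpbp2 itself had 20, 15 and 7 counts in WT1, WT2 and WT3 and 1, 0 and 0 counts in KO1, KO2 and KO3, in the order the labels call for (edgeR quasi-likelihood test, adjusted p = 0.0653). Lung markers were present in every library. WT3 and KO1 stood apart from the others through transcripts of squamous epithelium, whose 14 listed genes summed to 4637 CPM (counts scaled to parts per 1e6 of the library) in WT3 and to 8884 CPM in KO1, while the other libraries held 9.51 to 15.4 CPM. Marker sums of other tissues also differed between the genotypes. Adipocyte genes summed to 1076 to 1638 CPM in WT and 282 to 468 CPM in KO, cardiomyocyte genes to 2532 to 7201 CPM and 1339 to 1517 CPM, and lung tissue genes to 46148 to 50015 CPM and 65178 to 74769 CPM. Erythroid genes reached 19003 and 19740 CPM in KO2 and KO3, with 2403 to 5515 CPM in the other libraries. Lymph node stroma genes summed to 18.4 to 34.3 CPM, with overlap between the groups. The part of these other tissues in the T cell values was not tested.

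T cell genes were low but well counted in all 6 libraries, and most had a somewhat higher estimate in KO lungs, with no member called. Of the 10 members, 9 had a higher estimate in KO and 1 a lower estimate, with a median log2 fold change (KO minus WT) of 0.35 beside 0.02 over all genes tested. At an adjusted p of at most 0.05 (edgeR quasi-likelihood test, Benjamini-Hochberg adjustment over all genes), 0 of 10 members were called, while 2.28% of all genes tested were called, 257 higher and 169 lower. Lower calls were the more frequent with scaling by library size alone (117 higher, 189 lower) and with the exact test of edgeR (63 higher, 146 lower). The calls of the reported fit over all genes fell to 0 when any 1 WT library, or KO2 and KO3 together, were left out, and to 17 without KO1. By unadjusted p (at most 0.05), 3 of 10 members were higher and 0 lower, beside 27.3% of all genes in either direction. DESeq2 called 1 member, beside 21.5% of all genes it tested, and gave 6 an unadjusted p under the same threshold, beside 21.7%. Every KO library lay above every WT library for 4 members (Cd3d, Cd3g, Lat and Lef1), beside 20.0% of all genes tested, and for 0 members did every KO library lie below every WT library, beside 20.8% of all genes. The number of T cells, the RNA per T cell and the share of other tissues in a library cannot be told apart in these bulk lungs. The part of each in these estimates was not tested.

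**Figure D1:**
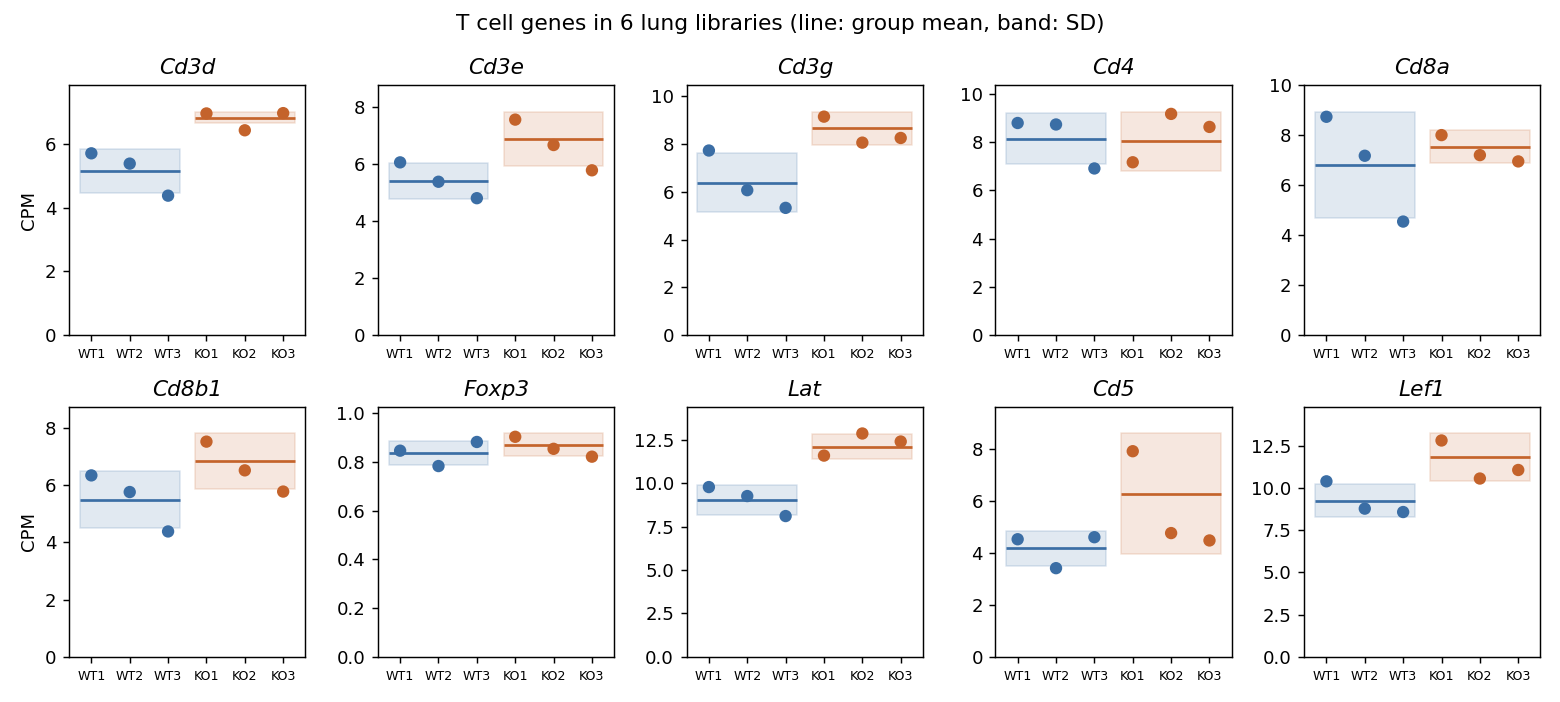
Level of each T cell gene in CPM (vertical axis, from 0) in the 6 lung libraries (horizontal axis), WT in blue and KO in orange. Lines are group means and bands are SD, with KO2 and KO3 averaged to 1 sample. The KO libraries lie above the WT libraries for Cd3d, Cd3g, Lat and Lef1, and the groups overlap for the other 6 genes.

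The CD3 chains carry the signalling motifs of the receptor complex and are required for its assembly at the cell surface. Cd3d, which encodes the delta chain, was at 5.71, 5.39 and 4.38 CPM in WT1, WT2 and WT3 and at 6.96, 6.43 and 6.97 CPM in KO1, KO2 and KO3. The KO libraries lay above the whole WT range, and WT3 was the lowest. The mean was 6.83 ± 0.183 CPM (SD, n = 2) in KO and 5.16 ± 0.693 CPM (SD, n = 3) in WT, and the log2 fold change was 0.41 ± 0.15 (SE; edgeR adjusted p = 0.164, unadjusted p = 0.0398).

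Cd3g, the gene of the gamma chain, was at 7.73, 6.07 and 5.33 CPM in WT1 to WT3 and at 9.15, 8.06 and 8.26 CPM in KO1 to KO3. The KO libraries again lay above the WT libraries, although KO2 exceeded WT1 by little. Its log2 fold change was 0.44 ± 0.19 (SE; edgeR adjusted p = 0.205). Cd3e, the gene of the epsilon chain, was at 6.05, 5.37 and 4.80 CPM in WT1 to WT3 and at 7.55, 6.66 and 5.77 CPM in KO1 to KO3. Here the groups overlapped, since KO3 fell below WT1. Cd3e had a log2 fold change of 0.35 ± 0.16 (SE; edgeR adjusted p = 0.222). In Cd3e, 3.31% of the exon bases are shared with overlapping genes, and whether counting used the strand is not given in the sources used here.

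The CD3 chain genes together reached 22.4 ± 1.83 CPM (SD, n = 2) in KO against 16.9 ± 2.49 CPM (SD, n = 3) in WT, a ratio of 1.32, with no overlap between the groups. An exact permutation test of 3 against 2 samples cannot give a p below 0.1, so single sums and ratios are given without a test. Within a library the chains kept close proportions. Cd3d over Cd3e was 0.953 ± 0.0455 in WT and 1.005 ± 0.116 in KO, and Cd3g over Cd3e was 1.17 ± 0.0912 in WT and 1.27 ± 0.0766 in KO (ratio of CPM, SD), and both ratios overlapped between the groups.

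Lat encodes the membrane adaptor that Zap70 phosphorylates and on which the signalling complex behind the receptor is built. It is also expressed in NK cells, mast cells and platelets. Lat was at 9.78, 9.26 and 8.11 CPM in WT1 to WT3 and at 11.6, 12.9 and 12.4 CPM in KO1 to KO3. The KO libraries did not overlap the WT libraries, and KO2 and KO3 were above KO1, unlike for most other members. The means were 9.05 ± 0.855 CPM (SD, n = 3) and 12.1 ± 0.737 CPM (SD, n = 2), with a log2 fold change of 0.43 ± 0.12 (SE; edgeR adjusted p = 0.102, unadjusted p = 0.0146). This was the smallest p-value among the members. Lat was called with all 6 libraries kept separate (edgeR adjusted p = 0.0270), with DESeq2 (adjusted p = 0.00852) and with a term for squamous transcripts (edgeR adjusted p = 0.0334). It was the only member called in these settings, which called 18.9%, 21.5% and 13.7% of all genes, so 1 of 10 members is below that background.

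Platelet and mast cell genes were therefore measured beside Lat. The platelet genes Pf4, Ppbp, Gp9, Itga2b and Gp1ba summed to 90.6, 65.3 and 80.4 CPM in WT1 to WT3. In KO1 to KO3 they summed to 93.9, 130 and 134 CPM, with KO2 and KO3 highest as for Lat. Of these 5, edgeR called 0 (beside 2.28% of all genes), while 2 were higher by unadjusted p (beside 27.3%). DESeq2 called those 2 (Gp9 and Itga2b) higher (beside 21.5%). Mast cell genes were lower in KO. Cpa3, a mast cell carboxypeptidase, and Mcpt4, a mast cell chymase, fell by 2.46 and 2.20 on the log2 scale (edgeR adjusted p = 0.0474 and 0.0446). The part of platelets or mast cells in the level of Lat was not tested.

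The groups overlapped for all 3 coreceptor genes. Cd4 was at 8.80, 8.73 and 6.91 CPM in WT1 to WT3 and at 7.17, 9.17 and 8.63 CPM in KO1 to KO3. The groups overlapped, with WT3 and KO1 the lowest libraries. Between the genotypes the log2 fold change of Cd4 was -0.01 ± 0.17 (SE; edgeR adjusted p = 0.971), with an unadjusted 95% interval from -0.44 to 0.42. Cd4 is also transcribed in some dendritic cells, and 6 of 7 listed dendritic cell genes had lower estimates in KO. Of these 7, 0 were called by edgeR (beside 2.28% of all genes) or DESeq2 (beside 21.5%). By unadjusted p, 0 passed the threshold (beside 27.3%).

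Cd8a, the gene of the CD8 alpha chain, was at 8.74, 7.18 and 4.55 CPM in WT1 to WT3 and at 8.01, 7.21 and 6.95 CPM in KO1 to KO3. WT1 was the highest and WT3 the lowest of all libraries, so that WT spanned the whole range of KO. The log2 fold change of Cd8a was 0.15 ± 0.29 (SE; edgeR adjusted p = 0.781). Cd8b1, the gene of the beta chain found on conventional cytotoxic T cells, was at 6.34, 5.76 and 4.38 CPM in WT1 to WT3 and at 7.52, 6.51 and 5.77 CPM in KO1 to KO3. WT3 was again the lowest and KO1 the highest, and the groups overlapped. Cd8b1 had a log2 fold change of 0.32 ± 0.20 (SE; edgeR adjusted p = 0.363). The genes are neighbours on chromosome 6, with 35.9 kb between them.

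Ratios of the coreceptor genes did not separate the groups. Cd4 over Cd8a was 1.25 ± 0.258 (SD, n = 3) in WT and 1.08 ± 0.256 (SD, n = 2) in KO, with single libraries from 0.895 in KO1 to 1.52 in WT3. Cd8a over Cd8b1 was 1.22 ± 0.172 in WT and 1.11 ± 0.0638 in KO. A shift between helper and cytotoxic transcripts smaller than this spread was not detectable.

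Foxp3, the transcription factor of regulatory T cells, was the lowest member. It was at 0.847, 0.784 and 0.882 CPM in WT1 to WT3 and at 0.904, 0.854 and 0.822 CPM in KO1 to KO3, from 48 to 62 counts per library. The groups overlapped and the libraries differed little. The log2 fold change of Foxp3 was 0.06 ± 0.17 (SE; edgeR adjusted p = 0.861), with an unadjusted 95% interval from -0.39 to 0.51. Foxp3 over Cd4 was 0.105 ± 0.0203 in WT and 0.110 ± 0.0226 in KO. Of the Foxp3 exon bases, 31.5% are shared with Ppp1r3f, Gm36995, Flicr and Ccdc22, so its counts may hold reads of those genes or lack reads that could not be assigned.

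Cd5, a surface receptor that dampens TCR signals and is also carried by B-1 cells, was at 4.53, 3.42 and 4.61 CPM in WT1 to WT3 and at 7.93, 4.77 and 4.49 CPM in KO1 to KO3. KO1 stood alone at the top, while KO2 and KO3 lay close to WT1 and WT3. Cd5 had a log2 fold change of 0.59 ± 0.27 (SE; edgeR adjusted p = 0.244), the largest estimate among the members, and it was 0.14 without KO1. KO1 was also the library with the most squamous transcripts, and with a term for these in the fit Cd5 was at 0.46 (edgeR adjusted p = 0.146).

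Lef1, a transcription factor of naive T cells and their thymic precursors that is also active in hair and other epithelium, was at 10.4, 8.78 and 8.58 CPM in WT1 to WT3 and at 12.8, 10.6 and 11.1 CPM in KO1 to KO3. KO2 lay just above WT1, so that the separation of the groups was narrow. The log2 fold change of Lef1 was 0.36 ± 0.14 (SE; edgeR adjusted p = 0.176, unadjusted p = 0.0460). Of the Lef1 exon bases, 13.7% are shared with Gm43352 on the opposite strand.

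**Figure D2:**
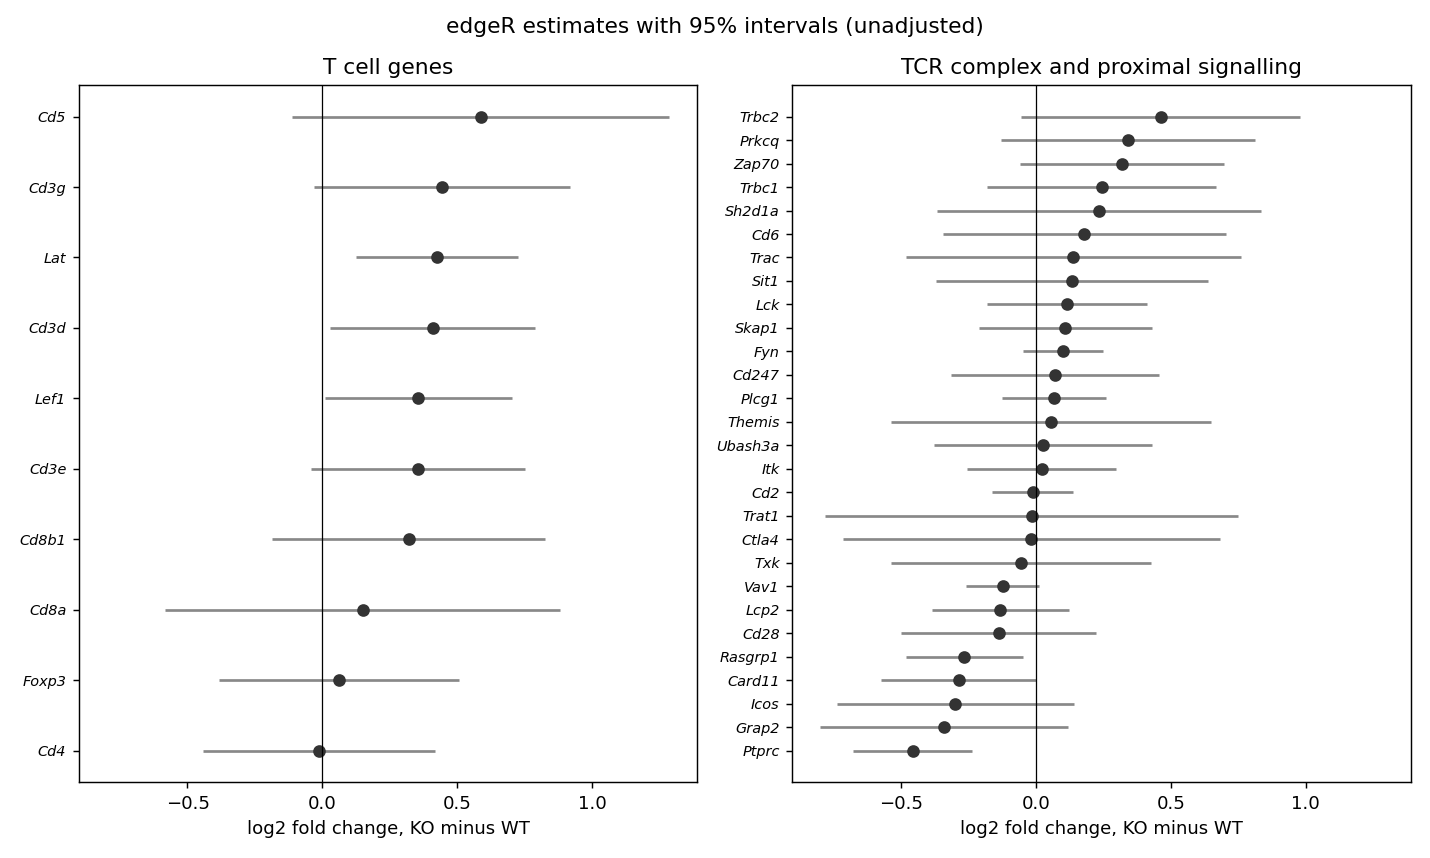
Log2 fold change, KO minus WT (horizontal axis), of the 10 T cell genes (left) and of 28 further genes of the TCR complex and proximal signalling (right), one gene per row. Points are edgeR estimates and lines are unadjusted 95% intervals. Intervals of Cd3d, Lat and Lef1 lie above 0, and most genes of the right panel have intervals that include 0.

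Single libraries had much weight in these differences. WT3 was the lowest library for 8 of the 10 members and WT2 for the other 2. KO1 was the highest library for 6 members, KO2 for 2, and KO3 and WT1 for 1 each. Comparing WT1 and WT2 with the summed KO2 and KO3 alone, a choice made after seeing the data, gave a median log2 fold change of 0.15 over the members. That comparison has 1 KO sample, whose spread is assumed to be that of WT, and only its estimates are given here. Lat was at 0.41, Cd3d at 0.27 and Cd3g at 0.24, while Lef1 was at 0.17, Cd3e at 0.12, Cd8b1 at 0.02 and Cd8a at -0.17. Without KO1 alone the median over the members was 0.18, with Cd3e at 0.20, Cd8b1 at 0.16 and Lef1 at 0.22.

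**Figure D3:**
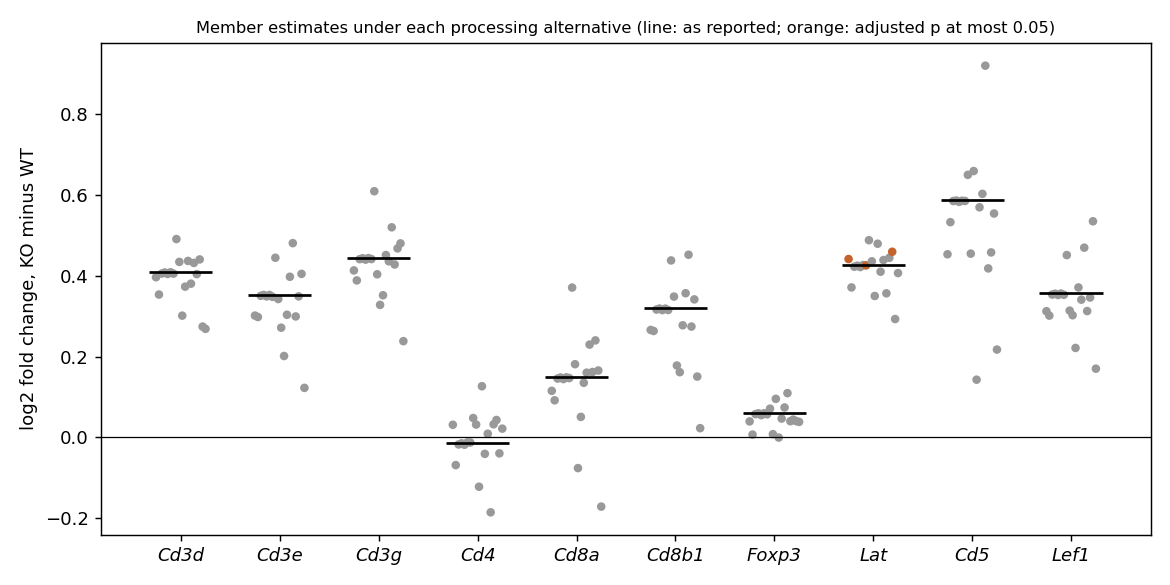
Log2 fold change, KO minus WT (vertical axis), of each T cell gene (horizontal axis) under 18 processing alternatives. Black lines are the values as reported, grey points are alternatives and orange points are alternatives in which the gene was called. Orange points occur for Lat alone, in 3 alternatives, and the points of Cd4 lie on both sides of 0.

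Per kilobase of exon the members spanned a wide range in WT lungs. Cd8b1 (3.70 ± 0.678 CPM per kb), Lat (3.27 ± 0.309) and Cd3d (2.84 ± 0.382) were highest, and neighbours in this order overlapped between the WT libraries. Cd4 (2.02 ± 0.266 CPM per kb), Cd3g (1.95 ± 0.376), Cd8a (1.88 ± 0.583), Cd3e (1.32 ± 0.154) and Lef1 (1.05 ± 0.113) followed, each overlapping the next, and Cd3d lay apart from Cd4. Cd5 (0.850 ± 0.135 CPM per kb) and Foxp3 (0.183 ± 0.0109) were lowest, and each lay apart from the gene above it (SD, n = 3). In KO lungs Cd8b1, Lat and Cd3d were again highest, at 4.60 ± 0.655, 4.38 ± 0.266 and 3.76 ± 0.101 CPM per kb, and Cd5 and Foxp3 lowest, at 1.27 ± 0.473 and 0.190 ± 0.0101 CPM per kb (SD, n = 2).

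The members did not all follow the CD3 chains from library to library. Pearson's r of log2(CPM + 0.5) with the mean profile of Cd3d, Cd3e and Cd3g over the 6 libraries was 0.95 for Lef1, 0.92 for Cd8b1 and 0.88 for Lat. It was 0.75 for Cd8a and 0.64 for Cd5, and only 0.26 for Cd4 and 0.24 for Foxp3. Among 15140 genes with a mean of at least 1 CPM, 2.05% had an r above 0.9. The 5 other genes most like the CD3 profile were Ltb (r = 0.996), Oaz2, U2af1, 2010107E04Rik and Gabpb1 (r from 0.988 to 0.990), of which Ltb encodes the lymphocyte cytokine lymphotoxin beta. Ltb was at 24.0, 21.2 and 19.5 CPM in WT1 to WT3 and at 27.4, 24.9 and 25.1 CPM in KO1 to KO3. These are descriptions over libraries that share their depth and scaling, and KO2 and KO3 are nearly the same.

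Across the wider TCR machinery, estimates lay on both sides of 0. Of 28 listed genes of the TCR complex and proximal signalling, all were tested and 0 were called by edgeR (beside 2.28% of all genes). DESeq2 called 2, both lower, beside its 21.5% of all genes. By unadjusted p, 2 were lower (Ptprc and Rasgrp1) and 0 higher, beside 27.3% of all genes in either direction. Of the estimates, 16 were higher and 12 lower, and the median log2 fold change was 0.04. Trbc2, a constant gene of the TCR beta chain, was the only one whose KO libraries all exceeded the WT range (0.46 ± 0.20, edgeR adjusted p = 0.220). Cd247, which encodes the CD3 zeta chain, was at 0.07 ± 0.15 (edgeR adjusted p = 0.797) and Trac, the constant gene of the alpha chain, at 0.14 ± 0.24 (edgeR adjusted p = 0.757). The kinases Zap70 and Lck were at 0.32 ± 0.15 and 0.12 ± 0.12 (edgeR adjusted p = 0.239 and 0.576).

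The listed TCR genes with the highest mean levels were Plcg1, Ptprc and Fyn, which many cell types other than T cells express. Ptprc, the phosphatase CD45 of all leukocytes, had a log2 fold change of -0.46 ± 0.09 (SE; edgeR adjusted p = 0.0583), and its KO libraries (107 to 126 CPM) lay below its WT libraries (149 to 163 CPM). Plcg1 and Fyn were at 0.07 and 0.10 (edgeR adjusted p = 0.613 and 0.332). With an offset for gene length and GC content in the fit, Ptprc was at -0.12 (edgeR adjusted p = 0.284), while it was called lower in 5 of 18 alternatives, among them DESeq2 (adjusted p = 3.2e-05) and 6 libraries kept separate (edgeR adjusted p = 0.0146). The CD3 chain sum over Ptprc was 0.121, 0.103 and 0.0974 in WT1 to WT3 and 0.221, 0.177 and 0.167 in KO1 to KO3, without overlap, and these ratios were not corrected for length. Gene length moved with the fold changes over all genes, with a median log2 fold change of 0.17 in the shortest of 5 length classes of equal size and -0.14 in the longest. Cd3d and Cd8b1 are in the shortest class, Lat in the next, Cd3e, Cd3g, Cd4, Cd8a and Foxp3 in the middle one, Cd5 in the next and Lef1 in the longest. With the same offset the median over the members was 0.28, Lat was at 0.29 (edgeR adjusted p = 0.373) and 0 genes were called in all.

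Genes that mark T cell states and lineages had both higher and lower estimates in KO. The median over 13 T lineage transcription factors was -0.03. Of these, edgeR called 1 (beside 2.28% of all genes), and DESeq2 called the same 1 (beside 21.5%). It was Id3, an inhibitor of E proteins that is also active in endothelium, which rose by 0.46 ± 0.06 on the log2 scale (edgeR adjusted p = 0.0472). It lost the call in 8 of 18 alternatives, in the same direction. The factors with the highest levels besides Id3 were Ets1 (-0.20, edgeR adjusted p = 0.205) and Zbtb7b (0.04, edgeR adjusted p = 0.780).

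Of 8 genes of naive and recirculating T cells, 0 were called by edgeR (beside 2.28% of all genes), and the median was -0.07. By unadjusted p, 1 was higher and 2 were lower (beside 27.3% of all genes). Klf2, a factor of quiescent T cells and of endothelium, was at 0.57 (edgeR adjusted p = 0.0721), and S1pr1, a receptor for exit from lymphoid tissue and an endothelial gene, was at -0.14 (edgeR adjusted p = 0.447). DESeq2 called 2 genes of the list (beside 21.5% of all genes), of which Klf2 was higher and 1 was lower.

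Of 12 regulatory T cell genes other than Foxp3, 11 were tested, with a median of -0.02, and edgeR called 1 (beside 2.28% of all genes). Il2rb, a chain of the interleukin 2 receptor that NK cells also carry, fell by 0.60 on the log2 scale (edgeR adjusted p = 0.0446), a call lost in 7 of 18 alternatives. DESeq2 called 2 genes of the list, Il2rb and Ikzf4, both lower, beside 21.5% of all genes. Ikzf4 was at -0.70 (edgeR adjusted p = 0.0523) and was called in 5 of 18 alternatives, and Ikzf2, the factor Helios, was at -0.03 (edgeR adjusted p = 0.920). Of 14 T helper and effector genes, 12 were tested, with a median of -0.13. Among them 0 were called by edgeR (beside 2.28% of all genes) or DESeq2 (beside 21.5%). By unadjusted p, 0 passed the threshold (beside 27.3%). Itgae, Cd69 and Cxcr6, the most abundant of them and known from resident T cells, were at -0.21, -0.16 and -0.25 (edgeR adjusted p = 0.388, 0.447 and 0.337).

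Estimates for markers of other lymphocytes were mostly lower in KO. All 11 cytotoxic and NK cell genes had lower estimates in KO, with a median of -0.44, 8 of them past the threshold by unadjusted p (beside 27.3% of all genes) and 7 called by DESeq2 (beside 21.5%). edgeR called 1 (beside 2.28% of all genes), namely Ncr1, an activating receptor of NK cells, which fell by 0.94 (edgeR adjusted p = 0.0446). Their sum was 104 to 113 CPM in WT and 81.1 to 85.6 CPM in KO. Of the 10 tested B cell genes, 8 estimates were lower, the median was -0.26, and 0 were called by edgeR (beside 2.28% of all genes). By unadjusted p, 4 were lower (beside 27.3%), and DESeq2 called 4 lower (beside 21.5%). The whole B cell list summed to 715 to 844 CPM in WT and 656 to 854 CPM in KO, with overlap, and without its most abundant gene, Ighm (0.08, edgeR adjusted p = 0.869), to 305 to 366 CPM in WT and 268 to 282 CPM in KO. Of the 8 tested genes of the thymus list, 4 estimates were higher and 4 lower in KO. In that list Rag1 had 111 counts in WT1 and 2 to 36 elsewhere, and Dntt had 88 in WT1 and 12 to 36 elsewhere. Ptcra had 0 to 5 counts in all libraries. The difference between T cell genes and these lists was not tested.

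**Figure D4:**
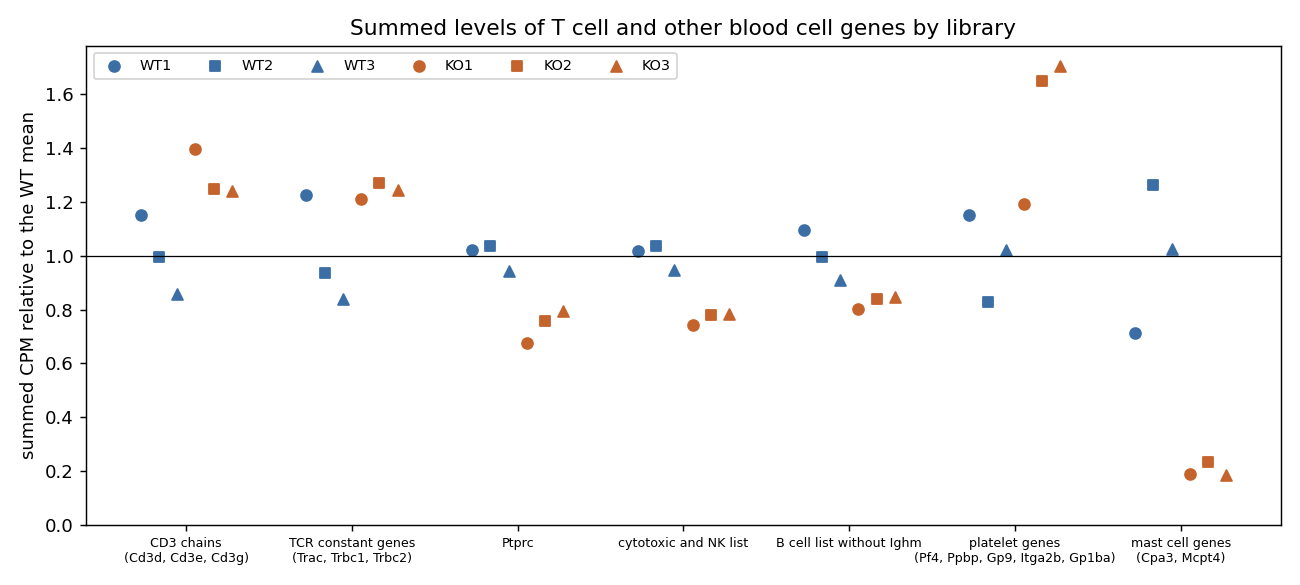
Summed CPM of gene groups (horizontal axis) in each library relative to the WT mean (vertical axis, from 0), WT in blue and KO in orange, with a symbol per replicate number. CD3 chain genes lie at 1.24 to 1.40 times the WT mean in KO libraries, Ptprc at 0.676 to 0.796 times and the cytotoxic and NK cell list at 0.742 to 0.783 times.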

How the data were processed

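Lungs were profiled by RNA sequencing in 3 WT and 3 KO libraries at ZT7, which the study describes as 1 mouse each, and groups and replicate numbers came from the labels. The deposited values are raw counts per gene, without normalization. Per the submitters' processing notes the authors used Trimmomatic 0.36, STAR 2.5.3a, Picard 2.9.0 and HTSeq 0.6.0 on mm10 (GRCm38). The annotation release and strand setting are not given in the sources used here. The members and gene lists, and the summing of KO2 and KO3, were chosen with earlier results of these data known.

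The counts entered edgeR 4.0.16 under R 4.3.3 (filterByExpr, TMM scaling, glmQLFit and glmQLFTest), with Benjamini-Hochberg adjustment over all tested genes and calls at an adjusted p of at most 0.05. DESeq2 1.42.0 was an alternative. CPM are counts in parts per 1e6 of the TMM-scaled library size, and 1 count was worth 0.0137 to 0.0171 CPM. The fit was tested on simulated counts with known fold changes. These had independent samples and no length, GC or tissue differences, so the test does not bear on those. Coordinates, overlaps and exon lengths came from GENCODE M21, which holds 97.5% of the gene identifiers.

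Named genes were all members and, in each of 5 pathway lists, the called genes (at most 5) and the 3 with the highest mean CPM, with marker lists given as sums. Of the genes this rule names, 1 is not reported here. Further genes named from the lists were chosen after their values were seen. P-values measure the spread between these samples, and counting limits cover counting error only.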

Additional observations from a re-analysis of the deposited data

How the results depend on the processing

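Cd3d, Cd3e, Cd3g, Cd8b1, Lat, Cd5 and Lef1 kept a higher estimate in KO under all 18 alternatives, with Cd3d from 0.27 to 0.49, Lat from 0.29 to 0.49 and Cd5 from 0.14 to 0.92, and Lat was the only member called in any. The members called were 1 (Lat) with 6 libraries kept separate, with DESeq2 and with the squamous term. The TCR signalling genes called were 2 with 6 libraries kept separate and with DESeq2, and 1 with the squamous term, with the filter of 10 counts in every library and with WT1, WT2 and the summed KO2 and KO3 alone, all lower.

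The 426 genes called became 3402 with 6 libraries kept separate, 937 with the filter of 10 counts, 209 with the exact test, 3875 with DESeq2, 2562 with the squamous term, 0 with the length and GC offset (4011 by unadjusted p) and 2256 with WT1, WT2 and the summed KO2 and KO3 alone, where the 1 KO sample is assumed to vary like WT. The same holds without KO1 and without KO2 and KO3. Leaving out libraries gave 0 to 418 calls, with 0 without any 1 WT library (3346 to 4193 by unadjusted p) or without KO2 and KO3 together (5070), and 17 without KO1. Scaling by library size alone gave 306 calls, of which 276 were among the 426, and moved the share of higher calls from 60.3% to 38.2% (30.1% with the exact test). The cause was not tested. Same-numbered deviations correlated at -0.46, 0.53 and -0.62, while those of WT3 and KO1 correlated at 0.72. This cannot decide whether replicate numbers pair samples, since WT3 and KO1 share squamous transcripts and KO2 and KO3 are nearly the same. A replicate block over 6 libraries gave 1157 calls, 539 higher and 618 lower.

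Cd4 turned to 0.031 with 6 libraries kept separate, 0.032 with the replicate block, 0.043 with the squamous term and 0.022 without WT3 and KO1, and ranged from -0.19 (without KO2 and KO3) to 0.13 (without KO1) when libraries were left out. Cd8a turned to -0.17 without WT3 and KO1, and ranged from -0.076 (without WT3) to 0.37, and Foxp3 from -0.00051 (without KO1) to 0.11. Plcg1 ranged from -0.028 (without KO2 and KO3) to 0.15. Zbtb7b turned to -0.016 with library size alone and -0.022 with the offset, and ranged from -0.012 (without KO1) to 0.094. Ikzf2 turned to 0.014 with 6 libraries kept separate, 0.012 with the replicate block, 0.21 with the offset and 0.091 without WT3 and KO1, and ranged from -0.20 to 0.11. Id3 lost its call in 8 alternatives and Il2rb in 7, in the same direction. At this depth Foxp3, at 48 to 62 counts, is the member most limited by counting error.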
